A study of Mus musculus with 72 samples.

Results

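Arc, the activity-regulated cytoskeleton-associated gene, was represented by 1 of the 35556 probe sets of a whole-transcript array, the only probe set annotated to Arc as its single symbol, and Arc is 1 of 18820 genes so represented (probe set 10429491, Entrez gene 11838, on chromosome 15 with 0 other annotated genes overlapping it). A probe set is a group of short DNA probes that together report the level of a transcript. Arc is an immediate early gene: its transcription starts within minutes of synaptic activity, and the messenger RNA travels into dendrites and is translated near active synapses. The protein takes part in the internalisation of AMPA-type glutamate receptors and so weakens or scales synapses, and it can assemble into capsid-like particles that carry RNA. In the hippocampus Arc is widely used as a mark of neurons recruited by an experience, and mice without it form short-term but poor long-term memories.

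Hippocampal RNA was measured in 72 male C57BL/6J mice, 2 months old, housed singly under 12 h of light a day, in 8 groups of 9 mice with 1 array for each mouse. The tissue of both hippocampi was used whole. Contextual fear conditioning pairs a place with an aversive event: mice spent 2.5 min in a chamber that ended with a single shock to the feet (2 s, 1.5 mA) at zeitgeber time 3 (ZT3, counted in hours from lights on). The dissection times were 30 min (FC30), 4 h (FC4), 12 h (FC12) and 24 h (FC24) after training, and RT30 mice were put back in the chamber for 5 min at 24 h to retrieve the memory and dissected 30 min later. Mice that were handled but never trained were dissected at matching times of day (CC30, CC4 and CC12). FC30, RT30 and CC30 were taken at ZT3.5, FC24 at ZT3, FC4 and CC4 at ZT7, and FC12 and CC12 at ZT15 in the dark phase. All mice, controls included, had been handled on the preceding days. No group was given only the chamber or only the shock, so effects of the place, the shock and their pairing cannot be told apart. Whole tissue cannot tell more cells that contain Arc RNA from more Arc RNA in each cell.

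Values are log2 signals. The raw RMA values (background corrected and quantile normalised) are given for single mice, and tests were run after subtraction of the first principal component over all arrays (PC1), a step the study also took. Array medians lay between 5.82 and 5.88, 6 arrays stood apart on PC1 or PC2, and 0 pairs of arrays were identical. The mean over 7 neuronal markers lay between 11.66 and 11.77 in all mice, and that over 8 choroid plexus markers between 5.33 and 8.25. Across the 72 mice, with group means removed, Arc had an r of 0.02 and a rho of -0.05 with the choroid plexus markers (permutation p = 0.896 and 0.659) and an r of -0.09 and a rho of -0.05 with the neuronal markers (permutation p = 0.432 and 0.671). Without the 2 mice farthest from the median these r were -0.07 and -0.10, and in all 13 array measures were set against Arc, none with an adjusted p under 0.1. Arc, Fos and Dusp1 served the study as positive controls that were checked by quantitative PCR in these RNA samples before hybridisation, so their rise at FC30 is not an independent result. Whether samples were chosen by that check is not given in the sources used here.

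Arc had its 2 highest group means 30 min after training and 30 min after retrieval. In FC30 mice the lowest, median and highest RMA values were 8.34, 8.58 and 8.93, with a mean of 8.65 ± 0.20 (SD, n = 9). In RT30 mice they were 8.40, 8.61 and 8.74, with a mean of 8.58 ± 0.11 (SD, n = 9). In CC30 mice they were 7.56, 7.71 and 8.10, with a mean of 7.75 ± 0.18 (SD, n = 9). All 9 FC30 mice and all 9 RT30 mice lay above every CC30 mouse, without overlap. In FC24 mice, which had the same training but no return to the chamber, the values were 7.55, 7.77 and 7.89, with a mean of 7.74 ± 0.11 (SD, n = 9). All 9 FC30 and all 9 RT30 mice were above every FC24 mouse as well, whereas the FC24 and CC30 mice overlapped.

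**Figure D1:**
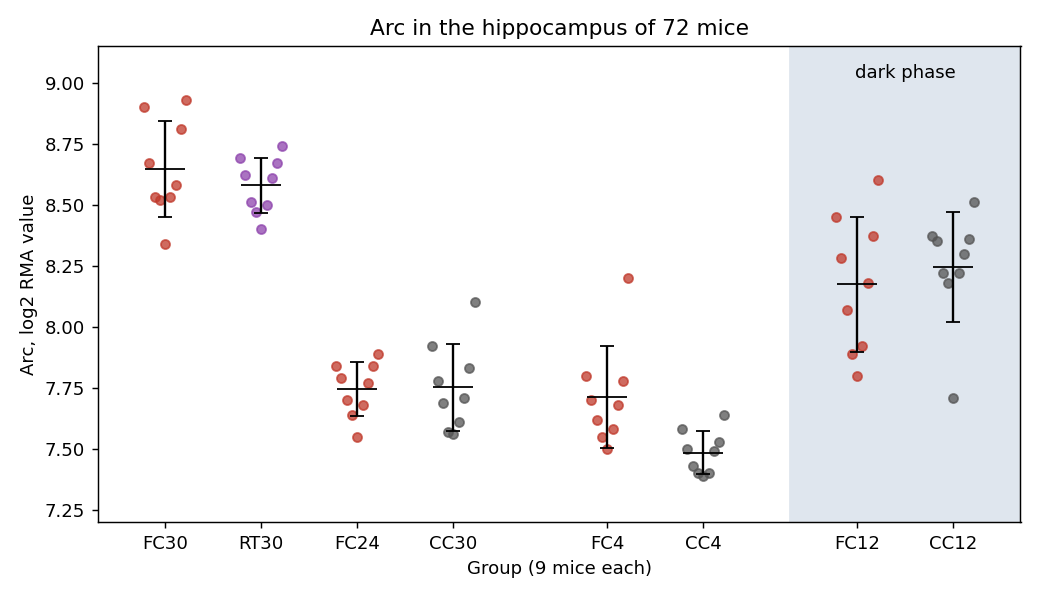
Arc log2 RMA value (vertical axis) of each of the 72 mice in its group (horizontal axis); points are mice, and the horizontal bar and whiskers are the mean and SD of 9 mice. FC30 and RT30 mice lie above all CC30 and FC24 mice, and the means of the 12 h groups of the dark phase (shaded) lie between, at 8.17 in FC12 and 8.25 in CC12, with single mice that overlap the groups on both sides. The low CC12 mouse is at 7.71 and the high FC4 mouse at 8.20.

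Arc was 0.85 log2 units higher in FC30 than in CC30 (SE 0.09, 95% interval 0.67 to 1.04, limma adjusted p = 8.97e-05), a fold of 1.81, and 0.256% of all probe sets passed the threshold of an adjusted p under 0.1 in that comparison. RT30 exceeded CC30 by 0.82 (SE 0.06, 95% interval 0.69 to 0.95, adjusted p = 9.77e-07), a fold of 1.77, in a comparison that called 0.278% of probe sets. In both comparisons Arc had rank 5 among all probe sets by the size of its rise. RT30 and FC30 differed by -0.03 (95% interval -0.22 to 0.15, adjusted p = 1), so a difference beyond 0.22 in either direction lay outside the interval. RT30 exceeded FC24 by 0.81 (95% interval 0.69 to 0.93, adjusted p = 1.98e-07, 0.152% of probe sets called), and FC30 exceeded FC24 by 0.84 (95% interval 0.66 to 1.02, adjusted p = 7.18e-05, 0.152% called). FC24 and CC30 differed by 0.01 (95% interval -0.11 to 0.14, adjusted p = 1, 0.00% of probe sets called). FC30 and RT30 were both set against the CC30 mice, so their 2 differences share these controls.

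At 4 h the mean was higher in trained mice, by an amount that did not pass the test over the whole array. FC4 mice had 7.50, 7.68 and 8.20 as lowest, median and highest values, with a mean of 7.71 ± 0.21 (SD, n = 9). CC4 mice had 7.39, 7.49 and 7.64, with a mean of 7.48 ± 0.09 (SD, n = 9), the lowest of the 8 groups. Of the FC4 mice, 5 of 9 lay above every CC4 mouse. The difference was 0.21 (95% interval 0.07 to 0.35), which did not pass the adjustment over all probe sets (unadjusted p = 0.00623, adjusted p = 0.922, 0.00% of probe sets called). Without the FC4 mouse at 8.20 it was 0.15 (unadjusted p = 0.00431, adjusted p = 0.879). In the order of group means, where Arc alone was tested, FC4 and CC4 were neighbours and differed by an exact permutation test (two-sided, p = 0.0105 adjusted over 7 pairs).

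At 12 h trained and untrained mice overlapped almost fully. FC12 mice had 7.80, 8.18 and 8.60, with a mean of 8.17 ± 0.27 (SD, n = 9), the widest spread of the 8 groups. CC12 mice had 7.71, 8.30 and 8.51, with a mean of 8.25 ± 0.22 (SD, n = 9). The difference of -0.08 had a 95% interval of -0.34 to 0.19 (adjusted p = 1, 0.00% of probe sets called), and it was 0.01 without the arrays that stood apart and -0.14 without the CC12 mouse at 7.71. The effect of training on Arc differed between times: it was 0.65 smaller at 4 h than at 30 min (95% interval of FC4 minus FC30 -0.88 to -0.41, interaction term in limma, adjusted p = 0.00842, 0.0450% of probe sets called), and 0.93 smaller at 12 h than at 30 min (95% interval of FC12 minus FC30 -1.25 to -0.61, adjusted p = 0.00508, 0.0872% called). Between 12 h and 4 h it differed by -0.28 (95% interval -0.58 to 0.01, adjusted p = 0.999, 0.00% called).

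Among mice that were never trained, Arc was highest in the dark phase. CC12 mice, in the dark phase, exceeded CC30 mice by 0.47 (SE 0.08, 95% interval 0.31 to 0.63, adjusted p = 0.00253), a fold of 1.39, where 3.50% of probe sets passed. They exceeded CC4 mice by 0.72 (SE 0.07, 95% interval 0.58 to 0.87, adjusted p = 9.07e-06), a fold of 1.65, where 5.01% passed. Of the CC12 mice, 8 of 9 lay above every CC30 mouse and 9 of 9 above every CC4 mouse. The exception was the mouse at 7.71, and without it the differences were 0.53 (adjusted p = 4.86e-05) and 0.79. CC4 was 0.25 below CC30 (95% interval of CC4 minus CC30 -0.37 to -0.13), which missed the threshold (unadjusted p = 3.08e-04, adjusted p = 0.216, 0.0731% of probe sets called), with 7 of 9 CC4 mice under every CC30 mouse on the RMA scale. Trained mice showed the same order at 12 h against 4 h: FC12 exceeded FC4 by 0.44 (95% interval 0.18 to 0.70, adjusted p = 0.0683, 4.22% called). That difference missed the threshold with the replicate number as a block in limma (adjusted p = 0.101). FC12 exceeded FC24 by 0.38 (95% interval 0.14 to 0.62) and missed the threshold narrowly (adjusted p = 0.102, 3.19% called).

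The dark-phase level was lower than that after learning. FC30 exceeded CC12 by 0.38 (95% interval 0.18 to 0.59, adjusted p = 0.0708, 2.19% of probe sets called) and RT30 exceeded CC12 by 0.35 (95% interval 0.19 to 0.51, adjusted p = 0.0342, 1.27% called). With the replicate number as a block in limma, FC30 against CC12 missed the threshold (adjusted p = 0.126). By group mean the order was FC30, RT30, CC12, FC12, FC24, CC30, FC4 and CC4. The means of neighbours differed at 3 of 7 steps by exact permutation tests. These were RT30 over CC12 (adjusted p = 8.64e-04), FC12 over FC24 (adjusted p = 0.0171) and FC4 over CC4. After PC1 was removed, 8, 8 and 5 mice of the first group in these pairs lay above every mouse of the second, so the groups overlapped. The pairs were set by the order of the same means. The other 4 steps had adjusted p between 0.83 and 0.834. The group means of Arc spanned 1.11 log2 units, rank 7 among all probe sets.

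**Figure D2:**
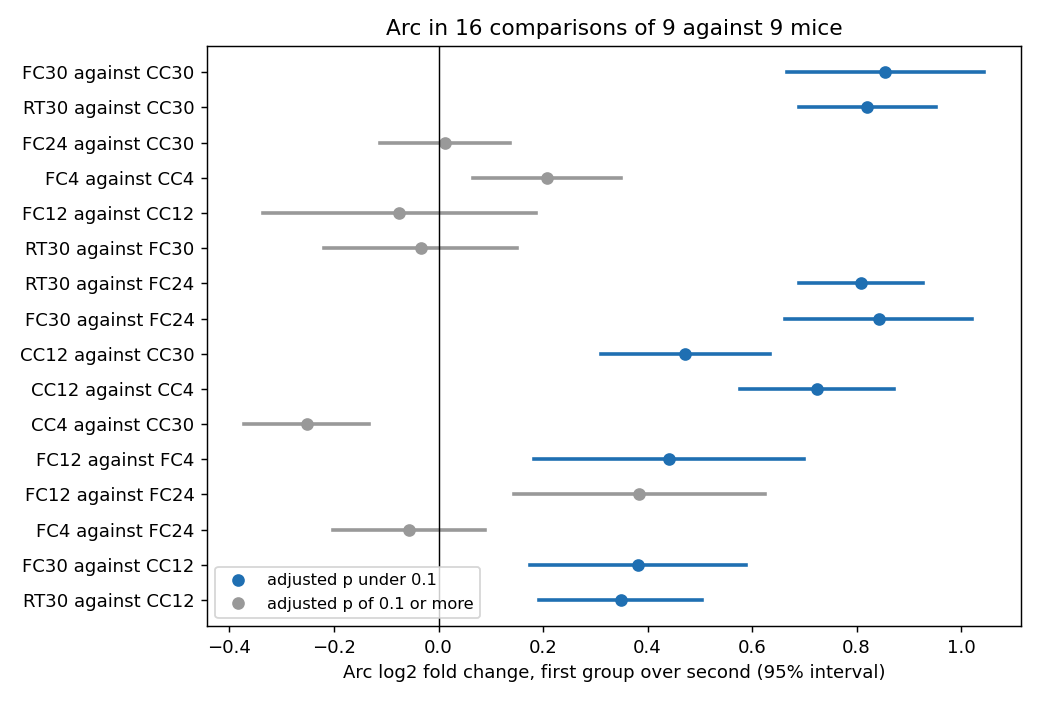
Arc log2 fold change (horizontal axis, first group over second) in the 16 comparisons; points are limma estimates after PC1 was removed, bars are 95% intervals, and blue marks an adjusted p under 0.1. The FC30 and RT30 comparisons with CC30 and FC24 lie between 0.81 and 0.85, and CC12 against CC4 reaches 0.72.

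Most cell type markers did not pass the test in these comparisons, and those of the choroid plexus varied most between mice. In FC30 against CC30, 0 markers of the 10 cell type lists passed (0.256% of all probe sets did), and in RT30 against CC30 only the endothelial tight junction gene Cldn5 did, with -0.20 (adjusted p = 0.0673). In CC12 against CC30, 1 of 10 dentate granule cell markers was higher and 2 were lower, 1 of 6 endothelial markers was higher and 1 lower, and 1 of 6 microglial and 1 of 5 oligodendrocyte markers were lower, beside 2.05% of all probe sets higher and 1.44% lower, while 0 of 7 neuronal, 0 of 5 CA1 and 0 of 7 CA3 markers passed. The mean over the neuronal markers lay between 11.66 and 11.72 in CC12 mice and between 11.70 and 11.77 in CC30 mice, and that over the dentate granule markers between 7.87 and 8.08 in CC12 mice and between 7.79 and 8.12 in CC30 mice. The 8 choroid plexus markers had a median change of 0.38 in FC30, 0.01 in RT30 and 0.48 in CC12 against CC30, with 0 past the threshold, and their mean lay between 5.84 and 8.25 in CC12 mice and between 5.54 and 7.19 in CC30 mice. In CC12 against CC4, 1 dentate granule marker was higher, and 1 CA3, 1 microglial and 1 oligodendrocyte marker were lower, beside 2.54% of all probe sets higher and 2.47% lower. In the comparisons of FC12, where Arc was higher too, dentate granule markers were among those that passed. In FC12 against FC4, 2 of 10 dentate granule markers (Pdzd2 0.24, Prox1 0.18), 1 of 7 CA3 and 1 of 6 endothelial markers were higher, and 2 endothelial, 1 of 7 astrocyte and 1 of 5 oligodendrocyte markers were lower (2.51% of all probe sets higher, 1.71% lower). In FC12 against FC24, 3 of 10 dentate granule markers (Pdzd2 0.52, Dsp 0.47, Prox1 0.20), 1 CA3 and 1 endothelial marker were higher, and 1 CA3, 1 endothelial and 1 oligodendrocyte marker were lower (2.11% of all higher, 1.08% lower). The part of these cells in the Arc differences was not tested.

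Arc was compared with a list of 51 other genes that respond to activity. They are called early genes here, although the list also holds slower ones such as Bdnf. After training and after retrieval a subset of the 51, which held several well-known transcription factors and phosphatases, rose too. In FC30 against CC30, 19 of the 51 were higher and 0 lower (0.186% of all probe sets were higher, 0.0703% lower), with a median change of 0.10 against 0.00 over all probe sets. In RT30 against CC30, 18 were higher and 0 lower (0.186% of all higher, 0.0928% lower). Egr2, a zinc finger transcription factor, had the largest change, 1.27 in FC30 and 1.04 in RT30. Fos, a subunit of the AP-1 transcription factor, changed by 0.82 in FC30 and 0.77 in RT30, and the nuclear receptor gene Nr4a1 by 0.76 in FC30 and 0.70 in RT30. Dusp1, a phosphatase that switches off MAP kinases, changed by 0.75 in FC30 and 0.76 in RT30, and Npas4, a transcription factor specific to neuronal activity, by 0.64 in FC30 and 0.58 in RT30. In FC24, FC4 and FC12 against their controls 0 of 51 passed, where 0.00% of all probe sets passed in each. Set against FC24, 17 of 51 were higher in FC30 (0.118% of all higher, 0.0337% lower) and 15 in RT30 (0.121% of all higher, 0.0309% lower), and 0 were lower in either.

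The training effect on some of these genes was smaller at the later times as well. It was smaller at 4 h than at 30 min for 7 of 51 early genes and larger for 0 (0.0422% of all probe sets smaller, 0.00281% larger), led by Egr2 (FC4 minus FC30 -1.12) and Fos (-0.85). At 12 h it was smaller for 10 and larger for 0 (0.0675% of all smaller, 0.0197% larger), led by Egr2 (FC12 minus FC30 -1.30) and Nr4a1 (-0.90), beside the -0.93 of Arc.

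In the dark phase some early genes were higher together with Arc, some were lower, and most did not pass the test. In CC12 against CC30, 6 of the 51 were higher and 3 lower, where 2.05% of all probe sets were higher and 1.44% lower, and without the CC12 mouse at 7.71 the counts were 9 higher and 3 lower. Those higher were Gadd45b (0.36), which acts in DNA demethylation and stress responses, the MAP kinase phosphatases Dusp6 (0.26) and Dusp5 (0.25), the clock gene Per1 (0.25), the inhibitor of NF-kappaB Nfkbia (0.21) and Ier3 (0.18). Those lower were the prostaglandin synthase Ptgs2 (-0.35), the synaptic pentraxin Nptx2 (-0.23) and the growth factor Bdnf (-0.20). Fos had 4.31, 4.83 and 5.15 as lowest, median and highest RMA values in CC12 mice, against 4.36, 4.70 and 4.91 in CC30 mice, and Npas4 had 6.37, 6.63 and 6.77 in CC12 mice, against 6.19, 6.47 and 7.32 in CC30 mice. Both pairs of groups overlapped. All Fos values in these 2 groups lay under the array medians of 5.82 to 5.88, and whether so low a signal hides a change was not tested. Fos differed by 0.09 (95% interval -0.10 to 0.29), Npas4 by -0.01 (95% interval -0.26 to 0.25), Egr1 by -0.05 (95% interval -0.19 to 0.09) and Egr2 by 0.12 (95% interval -0.05 to 0.29), none of them past the threshold. Of the 9 CC12 mice, 7 lay above the CC30 mean in Fos, 7 in Npas4, 6 in Egr2 and 3 in Egr1. Junb differed by 0.23 (95% interval 0.07 to 0.39, adjusted p = 0.139), with 9 of 9 CC12 mice above the CC30 mean, Nr4a1 by 0.21 (95% interval 0.05 to 0.36, adjusted p = 0.196), with 8 of 9, and Dusp1 by 0.18 (95% interval 0.06 to 0.31, adjusted p = 0.152), with 7 of 9 above every CC30 mouse. Against CC4, 8 were higher and 4 lower in CC12 (2.54% of all probe sets higher, 2.47% lower), led by Dusp6 (0.48) and the zinc finger gene Klf10 (0.38). In CC4 against CC30, where Arc was lower without passing, 0 of 51 passed (0.0253% of all higher, 0.0478% lower).

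In trained mice, 2 of the 51 were higher and 2 lower in FC12 than in FC4 (2.51% of all higher, 1.71% lower): Dusp6 (0.27) and the AP-1 subunit gene Jun (0.11), and Ptgs2 (-0.28) and Nptx2 (-0.21). Without the FC4 mouse at 8.20 the counts were 6 higher and 3 lower, and without the arrays that stood apart 4 higher and 2 lower. In FC12 against FC24, 4 were higher and 3 lower (2.11% of all higher, 1.08% lower), and 7 and 1 without the arrays that stood apart, with Nfkbia, Dusp5, Dusp6 and Per1 among the higher, at 0.23, 0.21, 0.20 and 0.18. In FC4 against FC24, only Per1 passed (0.15, with 0.0787% of all higher and 0.0337% lower), where Arc differed by -0.06 (95% interval -0.20 to 0.09, adjusted p = 0.910). Set against CC12, FC30 had 19 of 51 higher and 1 lower (0.928% of all higher, 1.26% lower) and RT30 had 14 higher and 1 lower (0.453% of all higher, 0.818% lower).

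The changes of Arc and of 7 named early genes stood side by side as follows, and their differences were tested in the dark-phase comparisons only. In FC30 against CC30 Arc changed by 0.85, Egr2 by 1.27, Fos by 0.82, Nr4a1 by 0.76, Dusp1 by 0.75, Npas4 by 0.64, Junb by 0.48 and Egr1 by 0.39. In CC12 against CC30 Arc changed by 0.47, Junb by 0.23, Nr4a1 by 0.21, Dusp1 by 0.18, Egr2 by 0.12, Fos by 0.09, Npas4 by -0.01 and Egr1 by -0.05. In CC12 against CC4 Arc changed by 0.72, Egr2 by 0.25, Nr4a1 by 0.24, Junb by 0.19, Dusp1 by 0.15, Fos by 0.14, Egr1 by 0.08 and Npas4 by -0.11. Egr2 had a larger change than Arc after training, which was not tested, and all 7 had smaller values than Arc in both dark-phase comparisons. There the change of Arc minus that of each gene was put to exact permutation tests, adjusted over all of them together. These tests were not planned and were run only in comparisons where Arc already had the larger value. They are therefore not an independent test. The largest adjusted p was 0.02155, for Junb in CC12 against CC30. The early genes Gadd45b, Dusp6, Dusp5 and Per1, named above, passed the limma test in CC12 against CC30 and were not among the 7.

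**Figure D3:**
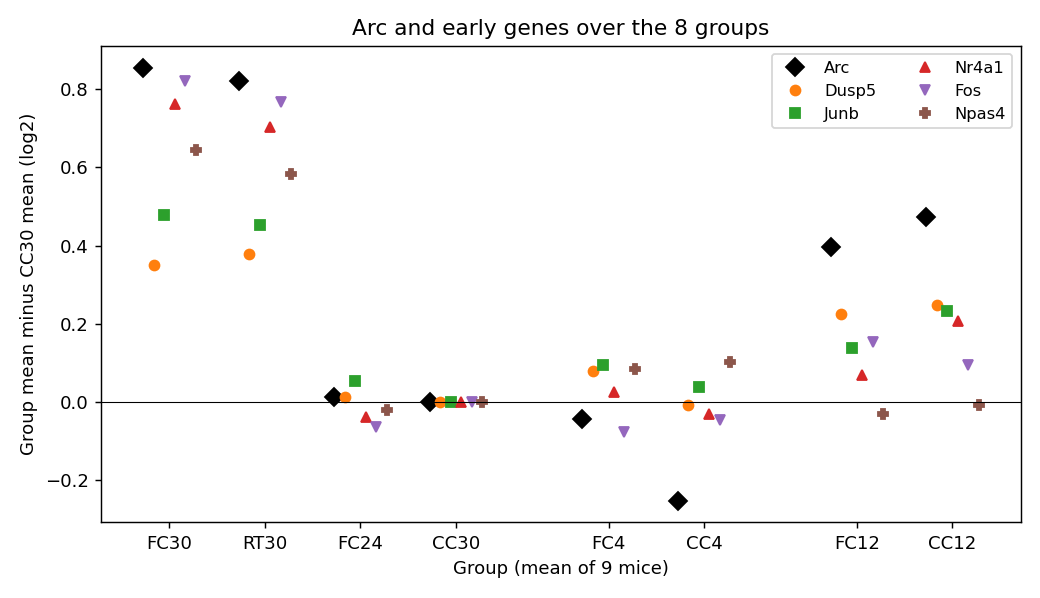
Group mean minus the CC30 mean in log2 units (vertical axis) for Arc (black diamonds) and 5 early genes in the 8 groups (horizontal axis), after PC1 was removed. Arc stands at 0.85 in FC30 and 0.47 in CC12, whereas Fos stands at 0.82 and 0.09 and Npas4 at 0.64 and -0.01. The Fos means of 4.67 in CC30 and 4.76 in CC12 lay under the array medians of 5.82 to 5.88.

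Over the 8 group means, the genes with the course most like that of Arc were sought among 415 probe sets with 1 symbol and a span of at least 0.3. Dusp5 came closest (Pearson r = 0.97 over 8 group means), then Mir212, a microRNA gene (0.96), the small RNA gene Rn4.5s (0.95), the AP-1 subunit gene Junb (0.94), Mir505 (0.93) and the kinase gene Sik1 (0.93). Ddit4, an inhibitor of mTORC1 signalling (0.92), Dusp1 (0.92), Nr4a1 (0.91) and Fos (0.91) completed the 10. The most opposed were 2900052L18Rik (-0.96), Mir219a-2 (-0.92), Ccl28 (-0.91), Klhdc9 (-0.89) and Fem1al (-0.88). Dusp5 moved less than Arc, with a span of 0.39 log2 units. These correlations describe 8 points and were not tested, and whether the signal of a microRNA gene comes from its precursor or its mature form cannot be told apart here.

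Within groups, mice with more Arc also had more of several other early genes. Across the 72 mice, with the 8 group means removed, 134 of the 35555 other probe sets followed Arc (limma with Arc as covariate, adjusted p under 0.1, 0.377%), 92 with it (0.259%) and 42 against it (0.118%). Of the 51 early genes, 10 followed Arc and 0 went against it. They were Nr4a1, Egr2, Dusp1, Egr1, Sik1, Dusp5, Dusp6, Junb, Klf10 and Fos, with r between 0.46 and 0.80. Over all 51, 42 had an r above 0 (82.35%, against 46.93% of all probe sets), with a median r of 0.20 against -0.01. Genes of 1 array share its RNA and its hybridisation, so these counts are not independent.

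Nr4a1 had the highest r of all, 0.80 (permutation p = 1e-05, the smallest that 100000 permutations can give), with a rho of 0.67 (permutation p = 1e-05) and an adjusted p of 4.77e-11. A mouse with 1 log2 unit more Arc than its group had 0.68 ± 0.07 (SE) more Nr4a1. The r of Nr4a1 was above 0 in all 8 groups, from 0.40 in CC4 to 0.94 in FC30. In FC30 the lowest Arc value after PC1 was removed, 8.14 in replicate 4 (8.53 before), came from an array that stood apart on PC1. Without the arrays that stood apart, the r of Nr4a1 across mice was 0.72. Egr2 had an r of 0.69 and a rho of 0.61 (permutation p = 1e-05 for each, adjusted p = 2.03e-06), and Dusp1 an r of 0.68 and a rho of 0.56 (permutation p = 1e-05 for each, adjusted p = 3.02e-06). Without the 2 mice farthest from the median, CC12 replicate 8 and FC12 replicate 2, r was 0.70 for Nr4a1, 0.65 for Egr2 and 0.58 for Dusp1. After PC1 was removed, Arc had an r of -0.37 and a rho of -0.10 with the PC1 score (permutation p = 0.0206 and 0.424, r -0.23 without 2 mice, adjusted p = 0.134 over 13 measures). In the RMA values, before that step, r was 0.06 and rho 0.14 (permutation p = 0.7135 and 0.2456), so the negative r appeared with the subtraction. Without a component removed, the r with Arc was 0.74 for Nr4a1, 0.62 for Egr2 and 0.61 for Dusp1. Without the 6 arrays that stood apart, 5 of the 10 early genes still passed, namely Nr4a1, Egr2, Dusp1, Sik1 and Klf10.

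**Figure D4:**
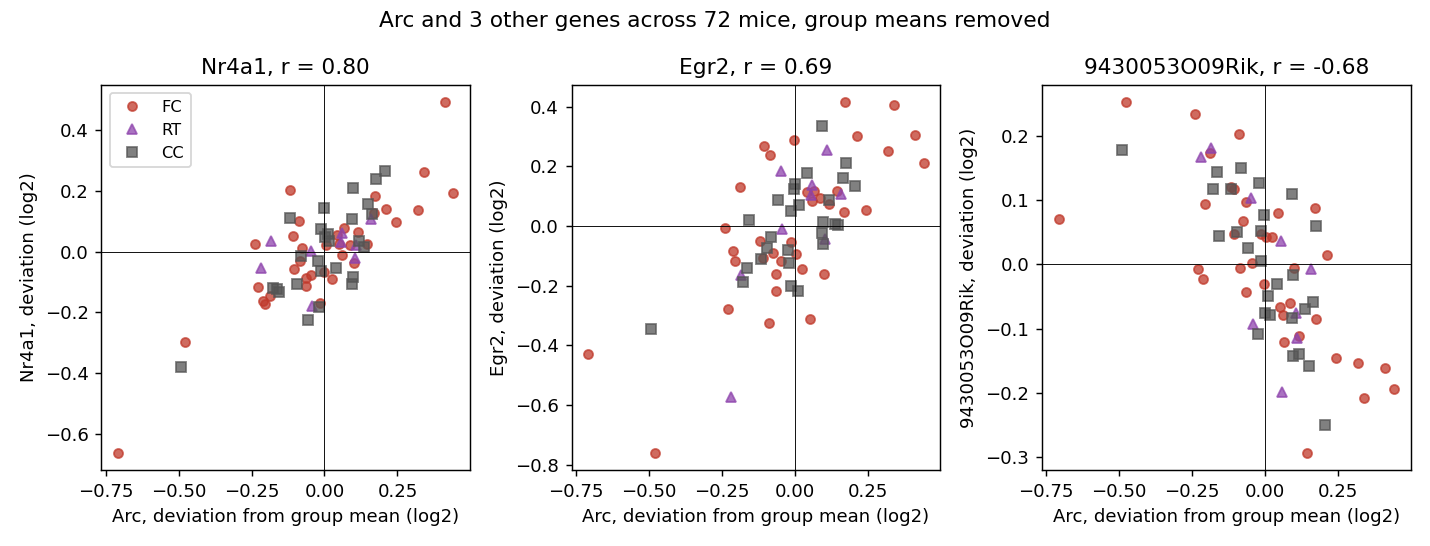
Deviation of Nr4a1, Egr2 and 9430053O09Rik from the group mean (vertical axes, log2) against that of Arc (horizontal axis, log2) in 72 mice, marked by trained (FC), retrieval (RT) and control (CC) groups. Nr4a1 and Egr2 rise with Arc, with r of 0.80 and 0.69, and 9430053O09Rik falls with it, with an r of -0.68.

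Fos and Npas4 had their highest r with Arc in the dark-phase groups. In FC12 and CC12 mice the r with Arc was 0.88 and 0.75 for Fos and 0.90 and 0.75 for Npas4. In FC30 mice it was 0.13 for both, although both genes were high there, and in RT30 mice it was 0.10 for Fos and 0.45 for Npas4. Over the 6 groups of the light phase alone, r was 0.15 for Fos (adjusted p = 0.837) and 0.06 for Npas4 (adjusted p = 0.952), against 0.46 (rho 0.26, permutation p = 0.00114 and 0.0423, adjusted p = 0.0466) and 0.40 (rho 0.31, permutation p = 0.00429 and 0.0177, adjusted p = 0.145) over all 72 mice. Without the same 2 mice, both of the dark phase, r was 0.27 for Fos and 0.24 for Npas4. The difference between the phases was not tested.

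**Figure D5:**
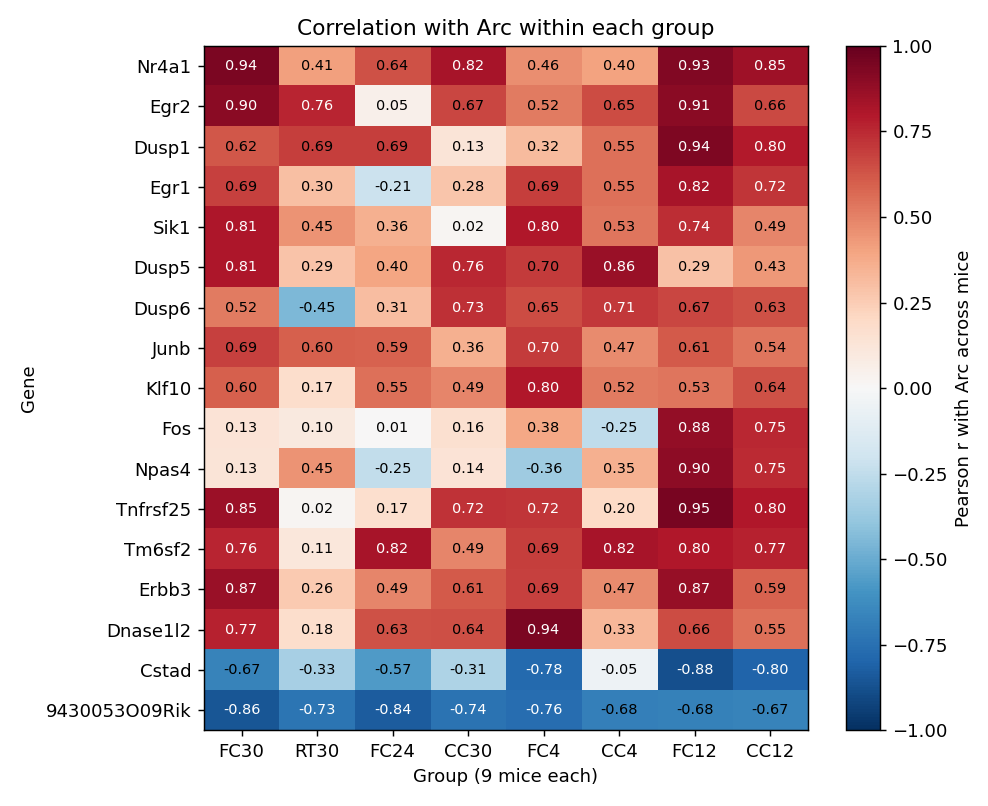
Pearson r with Arc across the 9 mice of each group (columns) for 17 genes (rows), after PC1 was removed, from -1 (blue) to 1 (red). Nr4a1 is above 0 in every group, and 9430053O09Rik is below 0 in every group. Fos and Npas4 lie between 0.75 and 0.90 in FC12 and CC12, the groups that hold the 2 mice farthest from the median.

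Outside the early genes, the probe sets most tightly tied to Arc were of other kinds. The long noncoding RNA 9430053O09Rik went against Arc, with an r of -0.68 and a rho of -0.72 (permutation p = 1e-05 for each, adjusted p = 3.02e-06), and its r lay between -0.86 and -0.67 in all 8 groups. Without the 2 farthest mice its r was -0.73. Tnfrsf25, a receptor of the tumour necrosis factor family (r = 0.68), Tm6sf2, a membrane protein known from lipid export in liver (0.64), Erbb3, a receptor for neuregulins (0.64), and Dnase1l2, of the DNase I family (0.56), went with Arc, and Cstad went against it (-0.58). Their rho lay between 0.49 and 0.59 for those that went with Arc and was -0.54 for Cstad, with permutation p of at most 6e-05 for each r and rho. These 6 genes were picked for a low p in the coupling fit on the same mice. Their permutation p are small by that choice and are not an independent test. Correlations were tested for 6 such genes, 51 early genes, 23 partners and 24 regulators of Arc.

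The sequence before the start site is shown for the 3 early genes most closely tied to Arc, since these genes moved together between mice. Capitals mark TGACGTCA, the cyclic AMP response element, its shorter core TGACG, read on either strand and contained in the longer element, and the CArG box bound by SRF. Sequences and build are those of RefSeq, 250 bases up to the start site, read from 5′ to 3′ along the gene's strand.
Nr4a1 (GRCm38.p6, chr15:101266596-101266845, plus strand): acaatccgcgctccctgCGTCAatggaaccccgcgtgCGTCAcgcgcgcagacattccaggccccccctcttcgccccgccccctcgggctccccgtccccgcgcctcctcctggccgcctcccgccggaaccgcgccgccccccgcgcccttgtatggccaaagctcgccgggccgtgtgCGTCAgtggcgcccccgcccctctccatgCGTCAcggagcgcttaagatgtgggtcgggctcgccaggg
Egr2 (GRCm38.p6, chr10:67537619-67537868, plus strand): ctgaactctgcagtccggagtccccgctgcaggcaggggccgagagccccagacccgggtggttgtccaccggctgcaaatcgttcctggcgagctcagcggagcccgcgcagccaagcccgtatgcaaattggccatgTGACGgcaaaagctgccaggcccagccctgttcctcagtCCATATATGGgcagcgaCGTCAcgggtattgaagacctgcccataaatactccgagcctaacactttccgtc
Dusp1 (GRCm38.p6, chr17:26508473-26508722, minus strand): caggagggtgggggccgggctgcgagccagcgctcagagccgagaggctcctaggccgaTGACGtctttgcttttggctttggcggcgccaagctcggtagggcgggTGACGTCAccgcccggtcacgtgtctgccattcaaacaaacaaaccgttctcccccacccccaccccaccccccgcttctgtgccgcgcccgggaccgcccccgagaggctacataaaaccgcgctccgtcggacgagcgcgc
Egr2 has 5 windows in the table, of which 3 hold TGACG and 4 the CArG box, and the one shown holds both. Of the 10 early genes that followed Arc, 7 had a window in the table used. The motifs were sought on both strands of 300 bases, from 250 before to 50 after the start. A gene was counted where any of its windows held the motif, both among these 7 and among all 27025 genes with a window. TGACG was found in 6 of the 7 genes and in 23% of all genes, TGACGTCA in 1 gene (Dusp1) and in 2.03% of all, and the CArG box in 2 genes (Dusp5 and Egr2) and in 1.81% of all. The TATA motif TATAAA was found in 2 genes (Fos and Junb) and in 15.7% of all. The AP-1 motif TGANTCA was found in 0 of the 7 genes and in 8.97% of all. A match describes these letters in this window and is not a measured binding site.

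Genes whose products act with Arc were taken next. Of 23 measured partners, which include endophilins, AMPA and NMDA receptor subunits, clathrin adaptors and scaffold proteins of the synapse, 0 passed in FC30 or RT30 against CC30, where 0.256% and 0.278% of all probe sets passed. In CC12 against CC30 (3.50% of all called) the AMPA receptor auxiliary subunit gene Cacng2 was lower (-0.12, adjusted p = 0.0275), and in FC12 against FC4 (4.22% of all called) the receptor gene Notch1 was higher (0.14, adjusted p = 0.0966). None of the 23 followed Arc across mice, with r between -0.22 and 0.38, where 0.377% of all probe sets did.

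Of 24 measured genes that control Arc, 0 passed in FC30 or RT30 against CC30, where 0.256% and 0.278% of all probe sets passed. Some were higher in the dark phase, where more of all probe sets passed. In CC12 against CC4, 5 were higher and 0 lower, beside 2.54% of all probe sets higher and 2.47% lower: Upf2 (0.23) and Upf1 (0.16), which act in nonsense-mediated decay, a pathway that takes Arc messenger RNA as a target, the transcription factor genes Creb1 (0.15) and Srf (0.14), and Rnf216 (0.11), a ubiquitin ligase that targets Arc protein. Against CC30 only Upf1 passed in CC12 (0.10, adjusted p = 0.0418, 2.05% of all higher). In FC12 against FC4, Upf2 (0.19), Upf1 (0.14) and Rnf216 (0.11) were higher (2.51% of all higher), and in FC12 against FC24, Upf2 (0.14), Rnf216 (0.12) and Mrtfa (0.15), a partner of SRF (2.11% of all higher). In FC30 against CC12, Mrtfa, Upf2 and Upf1 were lower, by -0.12, -0.12 and -0.10 on the log2 scale (1.26% of all lower). In the same comparisons Arc differed by 0.72 (CC12 against CC4), 0.47 (CC12 against CC30), 0.44 (FC12 against FC4) and 0.38 (FC12 against FC24 and FC30 against CC12). None of the 24 followed Arc across mice, with r between -0.36 (Fmr1) and 0.39 (Srf), where 0.377% of all probe sets did.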

How the data were processed

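Hippocampal RNA of 72 mice was hybridised to Affymetrix Mouse Gene 1.1 ST arrays. The authors averaged 2 scans of each array and summarised the probes with RMA in Affymetrix Power Tools, and the deposited values are log2 signals, background corrected and quantile normalised, for 35556 probe sets with 0 missing values. Quantile normalisation makes a change relative to the bulk of transcripts. Groups came from the sample labels. Gene symbols came from the platform annotation, in which 21218 probe sets carry 1 symbol. Where a gene had several such probe sets, the one with the highest mean was used.

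The first principal component of the values centred by probe set was subtracted, after the study's methods. It held 17.394% of the variance here, a smaller share than the methods give for theirs, so the component removed may not be the same. For each pair of groups, limma (3.58.1, under R 4.3.3) was run on the 18 arrays concerned, two-sided, with Benjamini-Hochberg adjustment over all probe sets and a threshold of 0.1. Effects at different times were compared by an interaction term on 36 arrays, and coupling by a fit with 8 group terms and Arc as covariate. Permutation tests (100000 draws, or exact between 2 groups) ran in numpy 2.4.6 under Python 3.11.15, tables were handled in pandas 2.3.3, and figures were drawn in matplotlib 3.10.9. The scripts were tested on simulated data. Precision is limited by 9 arrays in each group. Settings tried were no component removed, 2 components removed, PC1 as a covariate, all 8 groups in one fit, the replicate number as a block, an intensity trend with robust estimation, the methods' t-test (each probe set with its own equal variance and Benjamini-Hochberg adjustment), omission of the dimmest 25% of probe sets, no arrays that stood apart, only the light phase for coupling, and, added after the values were seen, PC3 as a covariate and no mice whose Arc value stood apart. The authors' local false discovery rates were not used.

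Arc and the gene lists were chosen with earlier results of these data known. Named were Arc in all comparisons, the 10 probe sets most like it over group means, 5 most opposed to it, the 10 with the lowest p in the coupling fit, 7 early genes (Fos, Egr1, Egr2, Nr4a1, Junb, Dusp1 and Npas4) and list members past the threshold, largest change first and at most 10 in a comparison. The opposed genes, examples and members named by r were picked after their values were seen.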

Additional observations from a re-analysis of the deposited data

Results flagged for a closer look

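The lowest Arc value in CC12, 7.71 in replicate 8, lay farther from the other mice than Dixon's criterion for a group of 9 allows: its gap to the next mouse was 0.5875 of the range of the group, where 0.493 is the limit. The highest Arc value in FC4, 8.20 in replicate 3, did so too, with a gap of 0.5714 of the range. Chance alone marks about 1 in 20 groups, and 8 groups were examined. Both mice stood out in other early genes. The CC12 mouse was the lowest of its group in 16 of 51 early genes (31.4%), among them Fos, Npas4, Egr1, Egr2, Nr4a1, Junb and Dusp1, and in 8.2% of all probe sets. The FC4 mouse was the highest of its group in 18 of 51 early genes (35.3%), among them Egr1, Junb, Sik1, Klf10 and Gadd45b, but not Fos, Npas4, Nr4a1, Egr2 or Dusp1, and in 12.4% of all probe sets. Neither array stood apart on PC1 or PC2, and the cause was not tested.

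The effect of training on Arc differed between time points by the interaction term in limma: FC4 minus FC30 was -0.65 (adjusted p = 0.00842), and FC12 minus FC30 was -0.93 (adjusted p = 0.00508), each against its own untrained control.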

How the results depend on the processing

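The rise of Arc in FC30 and RT30 over CC30 and FC24, its rise in CC12 over CC30 and CC4, and its 2 interaction terms against FC30 kept their direction and stayed past the threshold under every setting run: 0.85 to 0.94 for FC30 against CC30, 0.82 to 0.84 for RT30 against CC30, 0.47 to 0.53 for CC12 against CC30 and 0.72 to 0.79 for CC12 against CC4. FC12 against FC24, which missed the threshold, passed it in 7 of 9 settings, with 0.43 without a component removed (adjusted p = 0.0232), 0.39 with 2 removed (adjusted p = 0.0968), 0.47 with PC1 as a covariate (adjusted p = 0.0113), 0.46 without the arrays that stood apart (adjusted p = 0.0134), and an unmoved 0.38 with all 8 groups in one fit (adjusted p = 0.00858), an intensity trend (adjusted p = 0.0817) or omission of the dimmest 25% of probe sets (adjusted p = 0.0769). With the replicate number as a block, FC12 against FC4 (0.44, adjusted p = 0.101) and FC30 against CC12 (0.38, adjusted p = 0.126) missed it, and the block changed no other call of Arc. It lowered counts over all probe sets, from 91 to 43 in FC30 against CC30, 99 to 47 in RT30 against CC30, 54 to 19 in FC30 against FC24, 1243 to 705 in CC12 against CC30, 26 to 0 in CC4 against CC30, 1500 to 927 in FC12 against FC4, 1136 to 723 in FC12 against FC24, 40 to 9 in FC4 against FC24, 778 to 390 in FC30 against CC12 and 452 to 199 in RT30 against CC12. The labels do not say whether a number links mice across groups. The study repeated its protocol over 2 weeks for 9 independent experiments per group, and whether a number marks 1 of them is not given. Same-numbered mice had a median correlation of 0.016 and others of -0.002, with 32 of 252 and 187 of 2016 pairs over 0.1. Between trained groups and their controls the same-number median ran from -0.003 (FC24 and CC30) to 0.089 (FC4 and CC4). Of the 72 mice, 14 correlated best with their own number. FC24 against CC30 turned to -0.0078 without a component removed, and FC12 against CC12 to 0.013 without the arrays that stood apart, neither past the threshold. With all 8 groups in one fit the counts over all probe sets were 149 in RT30 against CC30, 2810 in CC12 against CC4, 108 in CC4 against CC30, 911 in RT30 against CC12, 25 (16 otherwise) in FC4 minus FC30, 1 in FC24 against CC30 and 2 in FC4 against CC4. With 2 components removed they were 2862 in CC12 against CC4, 47 in CC4 against CC30, 62 in FC4 against FC24 and 2 in FC4 against CC4. Without the arrays that stood apart they were 822 in CC12 against CC30 and 368 in FC30 against CC12, and without a component removed 482 in the last. Without the mice whose Arc value stood apart they were 69 in FC4 against FC24 and 31 in FC4 minus FC30. Of the early genes called, 9 in CC12 against CC30 became 14 with all 8 groups in one fit, 0 in CC4 against CC30 became 3 lower, and 7 in FC4 minus FC30 became 11, as they did without the arrays that stood apart. In CC12 against CC4, 8 higher and 4 lower became 5 and 3 with the block or PC1 as a covariate, in FC12 against FC24 4 and 3 became 5 and 1 with the block, and the 1 gene in FC4 against FC24 was lost with the block, PC1 as a covariate or all 8 groups. The 134 probe sets that followed Arc became 45 without a component removed, 68 without the arrays that stood apart, 64 with the replicate block, 69 in the light phase alone and 84 with PC3 as a covariate, and the early genes among them, 10, became 5 without the arrays that stood apart. The cause was not tested. In single genes, Nr4a1, Egr2, Dusp1, Sik1, 9430053O09Rik, Tnfrsf25, Tm6sf2, Erbb3 and Dnase1l2 passed in all 6 settings for coupling, whereas Egr1, Fos, Junb, Dusp5, Dusp6, Klf10 and Cstad missed the threshold in at least 1. FC4 against CC4 had an adjusted p between 0.712 and 0.998 in all settings.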
